A study of Homo sapiens with 4 samples.

Results

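MYC and PVT1 are neighbouring genes on human chromosome 8, one coding for a transcription factor and the other for a long non-coding RNA. Their peaks were taken from a list of RNA stretches enriched in a YTHDF2 pulldown of HCCLM3 cells. A peak annotated as exon or intron was given to the gene number in that annotation, and any other peak to the gene whose hg38 span held its summit. By this rule 13 of the 14858 peaks belonged to the pair, 3 to MYC and 10 to PVT1. The study sequenced RNA immunoprecipitated with YTHDF2 (RIP) beside input RNA from the same line, a metastatic hepatocellular carcinoma line, with 2 RIP and 2 input libraries. All 4 libraries carried the genotype label WT, with no treatment given, and none was a pulldown with a control antibody, so enrichment over input alone does not show that YTHDF2 bound the RNA. The deposited data were 1 list over all libraries with no value per library, so neither replicate spread nor library depth is known, and the labels do not say whether replicates were separate cultures.

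YTHDF2 is a cytosolic protein that reads N6-methyladenosine (m6A) on RNA and is best known for recruiting the CCR4-NOT deadenylase to its targets. MYC encodes a short-lived transcription factor that pairs with MAX and drives growth and ribosome production, and its mRNA is itself unstable. Regulation of that mRNA by m6A readers has been described, both through YTHDF2 and through the IGF2BP proteins, which bind its coding region. PVT1 is a spliced long non-coding RNA downstream of MYC, often gained together with it in tumours, and a host of several microRNA genes.

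In the GRCh38.p14 gene table MYC (gene number 4609) spans 127735434 to 127742951 on chromosome 8, or 7518 bp. PVT1 (gene number 5820) begins 51.6 kb beyond the end of MYC and spans 127794524 to 128101256, or 307 kb. No peak lay between the genes. The nearest peak on the other side of MYC was 2297 kb away, in TRIB1, which encodes a pseudokinase scaffold. Of the hepatocyte markers ALB, AFP, APOA1, APOA2, APOB, TTR, SERPINA1, HNF4A, TF, FGB, GPC3, KRT8, KRT18, CPS1 and ASGR1, 4 of 15 had a peak. KRT8 and KRT18, keratins of simple epithelia, reached a q of 0.01, APOB and HNF4A had only weaker peaks, and ALB and AFP had none. Of 13 markers of blood and non-parenchymal cells, CD68, LUM and PECAM1 had a peak and none passed that q. A gene without a peak has no level in such a list.

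MYC was enriched at 3 places along its gene span, all of them over many fragments and all of modest fold. Each of the 3 peaks had a q of 0.01 or less, the threshold used here for a passing peak, against 37.3% of all peaks in the list. The folds were 1.80, 2.27 and 1.50 in order of position, and the RIP fragments at the summits were 139, 197 and 207. The PVT1 peaks were of the opposite kind, few fragments with folds that ran higher, from 1.65 to 4.76. Of its 10 peaks, 1 passed, and their RIP fragments ran from 2 to 8. Fold, −log10 p and −log10 q are the values in the authors' deposited table for each peak, the fold being RIP over background at its summit. Fragment numbers were worked out from them.

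**Figure D1:**
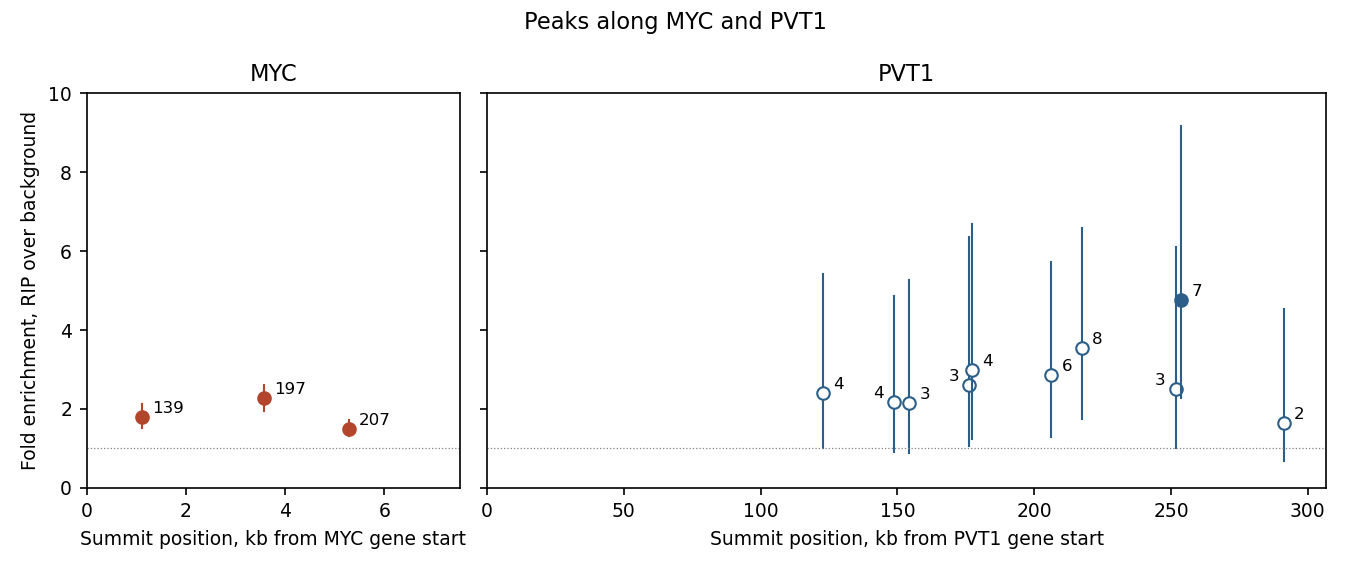
Fold enrichment (vertical axis) of each peak against the distance of its summit from the gene start in kb (horizontal axis), for MYC (left) and PVT1 (right, a wider span). Filled points have a q of 0.01 or less, numbers are RIP fragments at the summit, and vertical lines are 95% exact Poisson intervals of those fragments with the background held fixed. The MYC intervals are narrow and all lie above 1, while those of PVT1 are wide and only the 4.76-fold point is filled.

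The first MYC peak lay at 127736472 to 127736844 and was classed as a promoter peak within 1 kb of the transcription start. Its summit was 0.314 kb past the start of the deposited transcript and 1.11 kb from the gene start. The class thus names a position downstream of that transcript start, and which exon held the summit was not determined. The summit had 139 RIP fragments (95% exact Poisson interval 117 to 164, counting error only) against 113 input fragments, which scaled to a background of 76.8. The deposited fold was 1.80 with a −log10 q of 6.93. This fold stood at percentile 19.7 of all peaks, while the number of RIP fragments stood at percentile 93.0.

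The second MYC peak, at 127738645 to 127739253, was the strongest of the gene by fold and by q. It was classed as a promoter peak at 2 to 3 kb, with its summit 2.78 kb into the deposited transcript span of 6721 bp, introns included. Promoter-class peaks carry no exon number in the table, and which exon held the summit was not determined here. It had 197 RIP fragments (170 to 227) against 127 input fragments, a background of 86.3. The fold was 2.27 and the −log10 q was 20.0. The fold stood at percentile 39.6 of all peaks and 46.1 of the 2548 promoter-class peaks, of which 56.6% passed.

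The third MYC peak, at 127740645 to 127741367, was classed as 3' UTR and was the widest of the gene at 723 bp. Its summit lay 4.49 kb into the deposited transcript, near the upstream edge of the peak. Whether the summit itself lay in the 3' UTR or in coding sequence was not determined. It had 207 RIP fragments (180 to 237), the most of the 3 summits, but also the most input, 202 fragments and a background of 137. Its fold of 1.50 was therefore the lowest of the gene, with a −log10 q of 4.83. Among 4099 3' UTR peaks, of which 50.9% passed, the fold stood at percentile 13.1 and the RIP fragments at percentile 98.7. The median 3' UTR peak had a fold of 2.13 over 43 RIP fragments.

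**Figure D2:**
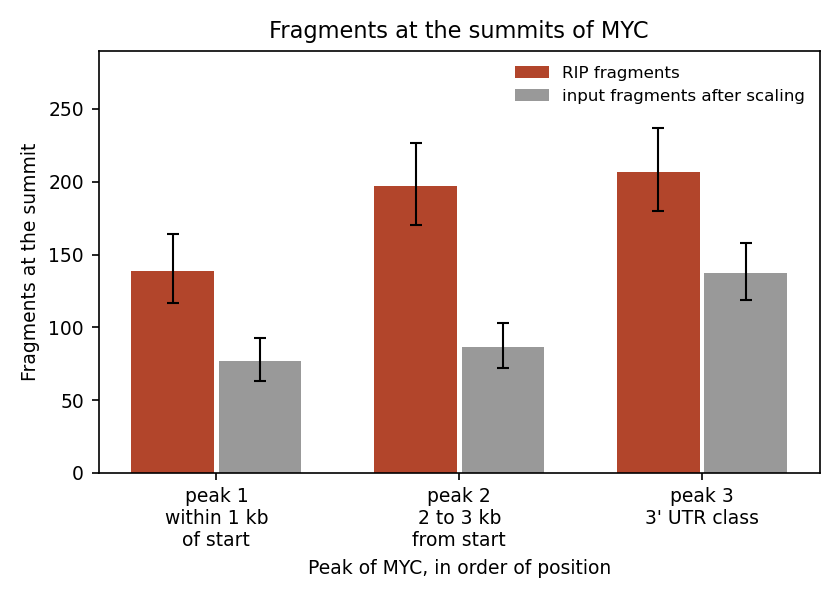
RIP fragments (red) and input fragments after scaling to the RIP (grey) at the summits of the 3 MYC peaks, in order of position, with 95% exact Poisson intervals as error bars (the vertical axis counts fragments from 0). RIP is above scaled input at each summit, by the widest margin at peak 2, and both are highest at peak 3.

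The input itself could be counted at these summits, because every MYC background was a whole number of scaled input fragments. This allowed an interval that holds the counting error of both RIP and input. The RIP to scaled input ratio was 1.81 at the first peak (95% Clopper-Pearson interval 1.40 to 2.34), 2.28 at peak 2 (1.82 to 2.87) and 1.51 at peak 3 (1.24 to 1.84). All intervals were above 1, but the peaks were called for RIP above background at these same summits. An interval above 1 is therefore no separate support for enrichment. Each summit is also the highest point of its peak, so the ratios lean towards high values. The ratio at the second peak was 1.51 times that at peak 3, with an exact conditional interval of 1.11 to 2.06. It was 1.26 times that at the first, with an interval of 0.89 to 1.78 that includes 1. Peaks 1 and 3 also could not be told apart (1.20 times, 0.865 to 1.67). These intervals compare fragments of the combined libraries and cover counting error only, since the spread between replicates is not in the list. Fragments of PCR-amplified libraries without molecular identifiers are not independent molecules.

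Among genes, MYC stood out by fragments and number of passing peaks rather than by fold. Its highest RIP number, 207, ranked 183 of 6977 protein-coding genes with a peak, for which the median was 33. Having 3 or more passing peaks was shared with 3.55% of them. Its highest fold, 2.27, ranked only 4620 of 6977, below the median of 2.61. A fold near 2.61 is what 3 fragments give over the genome-wide background, a value that 1576 peaks of the list share. Fold and depth are tied in this list, because a peak of few fragments needs a higher fold to enter it. Against peaks whose background lay within 1.25-fold of its own, the second MYC peak stood at percentile 86.0 of 1003, the first at 55.6 of 1133 and peak 3 at 39.8 of 250. The medians of these sets were 1.69, 1.72 and 1.56-fold. Of the 801 peaks with 139 to 207 RIP fragments, 92.0% passed, so passing by itself says little at this depth.

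**Figure D3:**
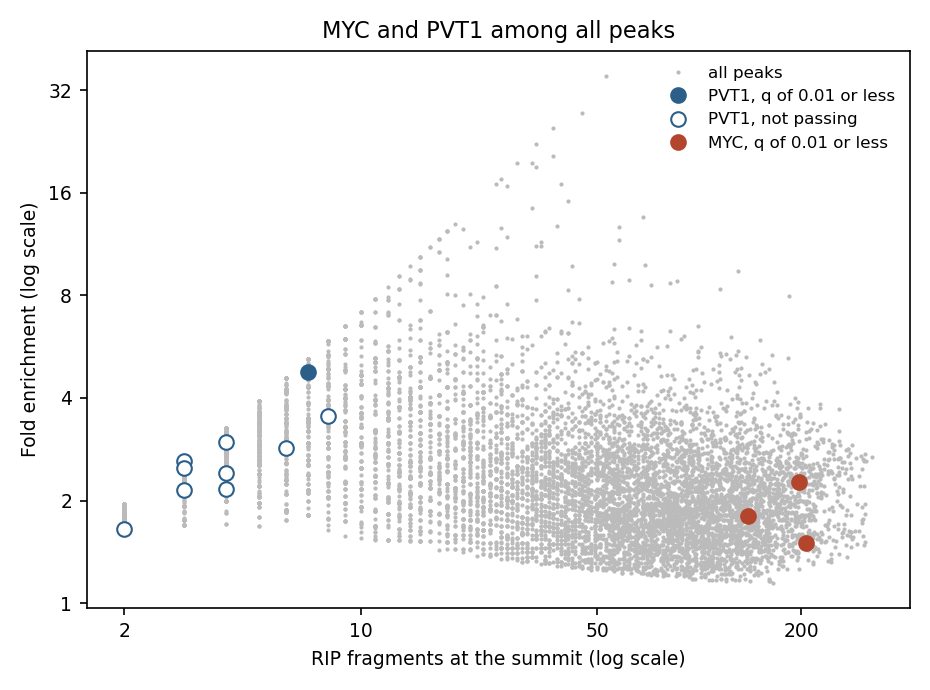
Fold enrichment against RIP fragments at the summit, both on log scales, for all 14858 peaks (grey), MYC (red) and PVT1 (blue, filled where q is 0.01 or less). MYC lies at the right, between 139 and 207 fragments and at folds of 1.50 to 2.27, and PVT1 lies at the left, between 2 and 8 fragments and at folds of 1.65 to 4.76.

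The genes whose strongest passing peak was most like that of MYC were found by the distance in log2 fold and log2 RIP fragments among 3708 protein-coding genes of this 1 list. They were NONO, a nuclear RNA-binding protein (2.32-fold over 200 fragments), the transcription factor YY1 (2.20-fold over 200), KHDRBS1, an RNA-binding signalling protein (2.36-fold over 200), CHMP4C of the ESCRT machinery (2.28-fold over 189) and the carbonyl reductase CBR1 (2.19-fold over 192). Distances ran from 0.04 to 0.061 log2 units. The peak of NONO was in an exon and the others were promoter-class peaks within 1 kb of a start, as was the first but not the strongest peak of MYC.

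PVT1 had the second highest number of peaks among 578 long non-coding RNA genes with a peak, behind MIR4435-2HG with 11 and level with LINC00536. Only 0.519% of these genes had 10 or more peaks, and the median was 1. PVT1 is also long. Per 100 kb of gene it had 3.26 peaks against 3.68 for MIR4435-2HG and 2.67 for LINC00536. Among the 76 long non-coding RNA genes of at least 200 kb with a peak, 2 had a higher density than PVT1 and the median density was 0.417 per 100 kb. A passing peak was found in 13 of these 76 genes and in 20.8% of all 578.

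No PVT1 peak lay in the upstream part of the gene. The first summit was 123 kb from the gene start, at 40.0% of the span, and the last at 94.9%. Introns held 6 of the 10, with 1 in intron 2, 3 in intron 3, 1 in intron 5 and 1 in intron 6 of the 8 introns of the annotated transcript. The other 4 were promoter-class peaks of small genes inside PVT1 and had no exon or intron assigned. The peaks covered 1.33% of the gene, and 3 of them had the width of 315 bp that is the smallest in the list.

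The strongest PVT1 peak lay at 128048082 to 128048424, 254 kb from the gene start. It had 7 RIP fragments (95% exact Poisson interval 2.81 to 14.4) against 1 input fragment, a background of 0.68. The fold was 4.76 and the −log10 q was 3.28. With the background held fixed, the Poisson interval gives a fold of 2.27 to 9.18. Without the pseudocount of 1 that the fold holds, the ratio of RIP to scaled input was 10.3, and the counting error of both numbers gives it a Clopper-Pearson interval of 1.32 to 464. The fold stood at percentile 96.5 of all peaks and the RIP fragments at percentile 43.0. Exactly this pair of values, 7 fragments over 1 input fragment, occurred at 45 peaks of the list.

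The next strongest PVT1 peak, at 128011612 to 128011950, had the most RIP fragments of the gene, 8 (3.45 to 15.8), and a fold of 3.54. Its q of 0.019 missed the threshold of 0.01. The peak at 127971660 to 127971979 in intron 3 had 4 fragments and a fold of 2.98, and the peak at 128000612 to 128000926 in intron 5 had 6 fragments and a fold of 2.85. Neither passed. The peak at 127970658 to 127971128 had 3 fragments over the genome-wide background and a fold of 2.61, and its summit was 894 bp from that of its neighbour in intron 3.

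The remaining 5 PVT1 peaks had 2 to 4 RIP fragments, folds of 1.65 to 2.50 and a −log10 q of at most 0.0254. For 4 of them the −log10 q was 0. They lay at 127917250 to 127917564 in intron 2 (2.41-fold over 4 fragments), at 127942969 to 127943283 in intron 3 (2.17-fold over 4), at 127948678 to 127949250 (2.15-fold over 3), at 128045834 to 128046547 (2.50-fold over 3) and at 128085425 to 128085803 in intron 6 (1.65-fold over 2). The last had the lowest fold of the gene, at percentile 0.7 of the 3180 intron peaks.

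No intron peak of PVT1 passed, where 7.26% of all intron peaks did. Of its 4 promoter-class peaks 1 passed, where 56.6% of all promoter-class peaks did. Among the 6768 peaks of the list with 2 to 8 RIP fragments, 5.39% passed. With 10 peaks the single passing one was read against that share without a test. For 7 of the 10 the Poisson interval of the fold, with the background held fixed, stayed above 1, and for the weakest it was 0.685 to 4.53. Each summit is the highest point of its peak, so these intervals lean towards high values.

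Input over the PVT1 peaks was sparse. At most 1 input fragment covered the summit at 8 of the 10 peaks and at most 2 at the others. For 5 peaks the background came from a 10 kb window, which held 61, 68, 72, 28 and 38 input fragments in order of position. The genome-wide level corresponds to 24.9 input fragments in such a window. For 2 peaks it fitted 5 and 4 input fragments in 1 kb, which cannot be told apart from 10 times as many in 10 kb. MYC had 113 to 202 input fragments at single summits. All together the summits of PVT1 held 44 RIP fragments at 10 peaks and those of MYC 543 at 3.

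In the deposited table the symbol PVT1 was attached to none of these 10 peaks. The table names the gene with the nearest transcription start, and for PVT1 peaks that was LINC02912 (3 peaks), MIR1205 (2), MIR1206 (2) or MIR1207 (3), small genes within PVT1. No peak overlapped MIR1204, MIR1205, MIR1206 or MIR1207. The closest approach was 728 bp, between the 4.76-fold peak and MIR1207, and 54.6 kb separated MIR1204 from the nearest peak. The peak at 127948678 overlapped LINC02912, a non-coding gene within PVT1, by 46 bp, with its summit outside it. The list gives no strand, so reads of overlapping genes cannot be told apart. For MYC the deposited symbol agreed for all 3 peaks.

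Non-coding genes with a strongest passing peak like that of PVT1 were sought by the same distance, among 288 candidates of this 1 list. There were 7 with a distance of 0, the same 7 fragments and the same fold. The 5 that the rule takes were LINC02762, LCIIAR, SMG1P7, SNAI3-AS1 and MAPK8IP1P2, and their order among the 7 is arbitrary. Low counts allow few distinct values, so this likeness is nothing particular to PVT1.

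The partners of MYC were compared next, in a list that also counts MYC itself with its passing peaks described above. Of 13 genes of the MYC, MAX and MLX network, a family of dimerising transcription factors, 5 had a peak and each of the 5 had a passing one. Among all protein-coding genes with a peak this share was 53.2%, and the median of the highest passing fold was 2.64. In the network it was 2.27, the value of MYC itself. MLXIP, a glucose-responsive partner of MLX, had 3 passing peaks with the highest at 2.56-fold over 80 fragments. MGA, a MAX partner that represses MYC-type sites, had 2.40-fold over 39 fragments, and MXI1, an antagonist of MYC, had 2.19-fold over 37. MAX had 1.98-fold over 98 fragments in its 3' UTR. MYC had the most RIP fragments of the network. MYCN, MYCL, MXD1, MXD3, MXD4, MNT, MLX and MLXIPL had no peak.

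Of 18 cofactors of MYC, 11 had a peak and 7 of these (63.6%) had a passing one, against the 53.2% of all protein-coding genes with a peak. MYCBP2, a large ubiquitin ligase, had 4.24-fold over only 9 fragments and 1 passing peak among 7. TRRAP, the scaffold of histone acetyltransferase complexes, had 3.85-fold over 35 fragments and the chromatin remodeller SMARCA4 3.22-fold over 45. The best peaks of CTR9, EP400, RUVBL1 and WDR5 did not pass.

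Of 22 genes of proteins that bind the MYC mRNA, 21 had a peak, and 17 of these (81.0%) had a passing one against 53.2% of protein-coding genes. The median passing fold was 2.57, and the median of the RIP fragments was 99 against 61 for all protein-coding genes with a passing peak. The higher number of fragments goes with the higher share, but it was counted only in genes that passed. Its part in the share was not tested. The cold-shock protein YBX1 had 4.22-fold over 98 fragments in its 3' UTR. PAIP1, a partner of poly(A)-binding protein, had 3.35-fold over 26 fragments, HNRNPU 3.22-fold over 116 and ZFP36L1, a decay factor of AU-rich mRNAs, 3.20-fold over 62. YBX1, HNRNPU, SYNCRIP and DHX9, which join IGF2BP1 on the MYC coding region, each had a passing peak. IGF2BP1 had none in the list. IGF2BP2 passed at 2.37-fold over 47 fragments, and the highest peak of IGF2BP3, 3.23-fold over 5 fragments, did not.

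Of 19 genes that control MYC protein turnover, 17 had a peak and 9 of these (52.9%) had a passing one, near the 53.2% of all protein-coding genes. Their median passing fold was 2.02 against 2.64. The scaffold AXIN1 had 3.07-fold over 50 fragments. FBXW7, which targets phosphorylated MYC for degradation, had 3.02-fold over 15 fragments in its 3' UTR. SET, an inhibitor of the phosphatase PP2A, had 5 passing peaks and 2.75-fold over 278 fragments, and PPP2CA, the catalytic subunit of PP2A, had 2.33-fold over 141. AURKA (2.08-fold) and SKP2 (2.50-fold) had peaks that did not pass.

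Of 40 genes known as transcriptional targets of MYC, 32 had a peak and 26 of these (81.2%) had a passing one, against 53.2% of protein-coding genes. The median passing fold was 2.45, and the median of their RIP fragments was 134 against 61 for all protein-coding genes with a passing peak. The cap-binding protein EIF4E led with 5.21-fold over 41 fragments. The nucleolar methyltransferase FBL had 4.99-fold over 114 fragments, the nucleoside diphosphate kinase NME1 4.87-fold over 129 and the chaperonin HSPE1 4.77-fold over 114. The best peaks of CDKN1A, PHB1, RCC1, SLC2A1, SLC7A5 and TFRC did not pass. As above, the higher number of fragments goes with the higher share, and its part in it was not tested.

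MYC shares its short mRNA half-life with early response genes. Of 35 such genes, 23 had a peak and 14 of these (60.9%) had a passing one, near the 53.2% of protein-coding genes. Their median passing fold of 2.13 lay close to the 2.27 of MYC. The median of their RIP fragments was 152, against 61 for all protein-coding genes with a passing peak. Fold and depth are tied among these peaks, and the part of depth in this likeness was not tested. The inhibitors of bHLH factors ID3 (4.0-fold over 129 fragments) and ID1 (3.83-fold over 185) led, followed by the AP-1 subunit JUND (3.29-fold over 152) and KLF10 (2.28-fold over 144). JUN had 1.54-fold over 178 fragments. CCND1, with 4 passing peaks, was the one listed early response gene with 3 or more. ATF3, EGR1 and HES1 had peaks that did not pass.

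Of 37 long non-coding RNAs other than PVT1, 19 had a peak and 11 of these (57.9%) had a passing one, against 20.8% of all long non-coding RNA genes with a peak. Their median passing fold was 2.80, below the 4.08 of all long non-coding RNA genes with a passing peak. The median of their RIP fragments was 47, against 21 for all long non-coding RNA genes with a passing peak. The part of this depth in the share and in the fold was not tested. LINC-PINT resembled PVT1 in having 7 peaks with 1 passing, at 4.26-fold over 6 fragments in an intron. SNHG14 had 4.13-fold over 20 fragments and MIR4435-2HG 3.62-fold over 10. SNHG1 had 3.41-fold over 47. The abundant MALAT1 (1.81-fold over 179 fragments) and NORAD (1.59-fold over 188, with 3 passing peaks) had fragments in the range of the MYC peaks. Their folds were near the 1.80 and 1.50 of the weaker MYC peaks and below the 2.27 of the strongest.

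Around the pair in 8q24, peaks were found in 8 of 29 listed genes and passing ones in 6 of these, where 50.3% of all genes with a peak had one. The median passing fold was 2.67 against 2.68 for all genes with a passing peak. Counted by peaks, 8 of the 33 other peaks within 2500 kb of the pair passed, beside the 37.3% of the whole list. NSMCE2, a SUMO ligase, had 4.36-fold over 36 fragments. ASAP1, a GTPase-activating protein for ARF, had 16 peaks, of which 2 passed, the highest at 3.50-fold over 100 fragments. TRIB1 had 2.74-fold over 78 and SQLE, an enzyme of cholesterol synthesis, had 2.59-fold over 88. The listed non-coding genes CASC11, CCAT1 and PCAT1 had no peak. By RIP fragments at the strongest passing peak, none of these neighbours reached MYC.

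**Figure D4:**
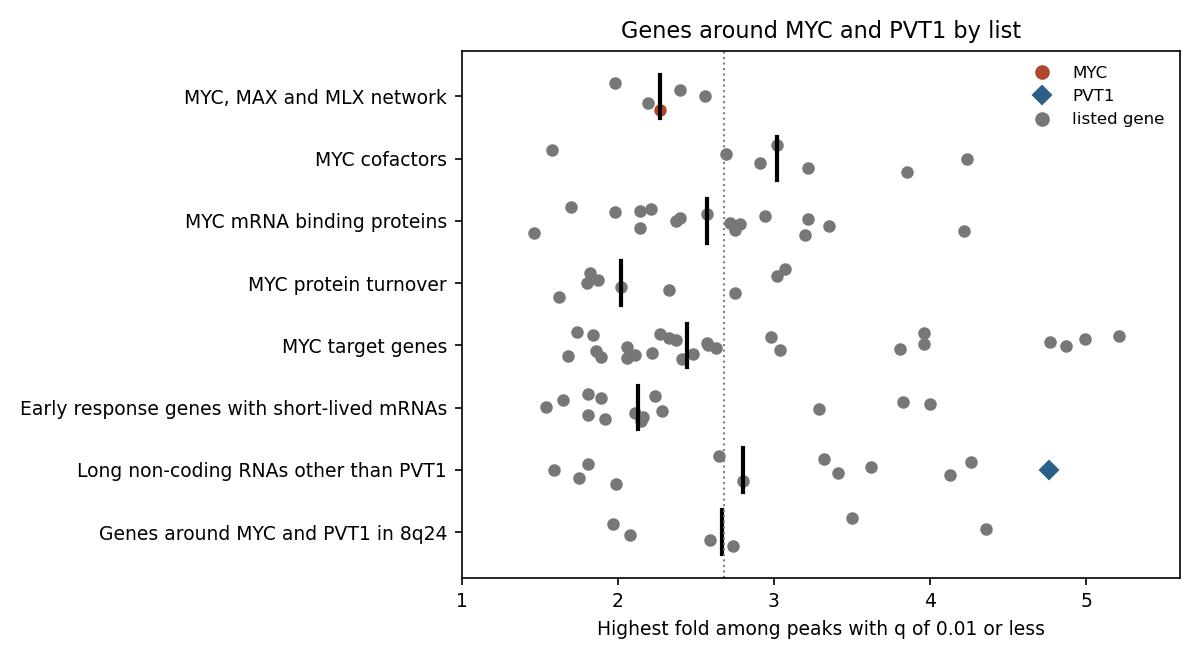
Highest fold among passing peaks (horizontal axis) of each gene with a passing peak, by list (vertical axis), with MYC in red, PVT1 as a blue diamond beside the other long non-coding RNAs, and black bars at list medians. The dotted line marks 2.68, the median over all genes with a passing peak; MYC at 2.27 lies left of it and PVT1 at 4.76 to its right.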

How the data were processed

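RNA of 2 YTHDF2 RIP and 2 input samples of HCCLM3 cells was extracted with a Magna RIP kit and went into stranded low-input libraries, per the labels' protocols. HISAT2, MACS2 and hg38 are named in the submitters' processing notes. Versions, options and how libraries were combined were not given in the sources used here. Each deposited peak has a fold enrichment (a ratio), −log10 p and −log10 q, a score, a width and a summit offset, per the file headers. The deposited score was 10 times the −log10 p rounded down in 100.0% of peaks and was not used. The distance to the nearest start site in bp is as deposited.

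With 1 added to RIP and background in the fold, and a Poisson p, fold and p together gave whole RIP fragments k at each summit. They met every −log10 p within 0.000189, and 100.0% of 2000 simulated peaks were recovered. Each background was the genome-wide level (0.533) or, within 0.01, a whole number of scaled input fragments at the summit (0.68 each) or in a window of 1 kb or 10 kb at a fragment length of 315 bp. That length was taken from the smallest peak width. Depth is unknown.

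Gene names and spans came from a RefSeq table of GRCh38.p14, without strand. Where spans overlapped, a protein-coding gene was preferred, next the deposited one and next the shortest; 91.8% of peaks had a gene. A peak passed at a q of 0.01 or less. Percentiles put ties at their mid-rank. Lists and members were chosen with earlier results of these data known. Named genes were MYC and PVT1, up to 4 members per list by highest passing fold, and the 5 most alike; other names were added after their values were seen. An item that this rule takes is not reported here. Python 3.11.15, pandas 2.3.3 and SciPy 1.17.1 were used.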

Additional observations from a re-analysis of the deposited data

How the results depend on the processing

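Of 37 alternatives, 26 kept the value within its interval, or within 1.5 times for a count, and 11 moved it. None turned a direction, but counts have no direction to turn. Some alternatives could not change the value. An example is the highest MYC fold among passing peaks only, since all 3 MYC peaks passed. Requiring a fold of at least 2 left 1 passing MYC peak. Ranked by −log10 q, the strongest MYC peak stood at percentile 96.5 instead of 39.6. The strongest PVT1 peak then stood at percentile 71.7 instead of 96.5, a change counted among those that kept the value. PVT1 had 2 passing peaks at a q of 0.05, 0 at a −log10 q of at least 5 and 0 under the deposited gene, and its highest fold was 10.3 without the pseudocount of 1. The MYC, MAX and MLX network had 3 passing genes at a −log10 q of at least 5 and 3 under the deposited gene, instead of 5. With the deposited gene, 10 MYC mRNA binding proteins, 13 MYC target genes and 5 long non-coding RNAs passed. The deposited gene gives no fold for PVT1. No paired analysis was possible because the list holds no value per library, and for the same reason no replicate could be left out. Counts of 2 to 8 fragments limit what can be said of PVT1.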

Other observations

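The 2 nearest peaks beyond the 3' end of PVT1 lay in sequence classed as intergenic. The peak at 128156802 to 128157117, 55.7 kb from the end of PVT1, had 4.17-fold over 6 RIP fragments and a −log10 q of 2.31, and it passed, as did 17.7% of all intergenic peaks. The other, at 128166578 to 128166892, had 2.38-fold over 3 fragments and did not pass. MIR1208, the nearest microRNA gene, lay 6.61 kb from the first of them.

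Of the 6 long non-coding RNA genes with 8 or more peaks, 4 were on chromosome 8, a count made after the values were seen. Beside PVT1 these were LINC00536 (10 peaks), MSC-AS1 (9) and ZFPM2-AS1 (8), and no peak of these others passed. Chromosome 8 held 9.0% of the 856 peaks given to long non-coding RNA genes and 4.45% of all peaks. The 77 peaks behind that 9.0% include those of the 4 genes just named, so the share is no separate measure. Of peaks with 8 or fewer fragments on chromosomes 1 to 22 and X, it held 4.75%. The 10 Mb bin from 120 to 130 Mb that holds MYC and PVT1 had 35 such peaks, at percentile 90.2 of 316 bins with a median of 20. These 35 include the 10 peaks of PVT1 itself, so the bin is no separate measure of the density around them. Whether weak peaks are dense in this bin apart from those of PVT1 was not tested.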
